A study of Homo sapiens with 12 samples.

Results

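The genes described here are the 117 expressed genes of the short arm of human chromosome 3 whose start lies between 45.9 and 53.2 Mb on GRCh38, in the band 3p21. They were taken from 300 genes of the deposited table that start in this interval, by asking for more than 1 CPM, a count scaled to a common total of gene counts per library, in at least 3 libraries. That filter kept 13236 genes of the whole table of 60671, of which 739 lie on chromosome 3. The interval was chosen by the log2 differences between ΔLEO1 and wild type in each serum, so those genotype values are given as a description and carry no p-values. The interaction of genotype with serum is the difference between those values and is treated the same way. The serum comparisons within a genotype were not used to choose the members and were tested. They use the same libraries as the genotype values, so they are not independent of the choice. A few members exceeded 1 CPM in some groups alone, SEMA3F, MYL3, ZMYND10 and DOCK3 in WT libraries only, ITIH3 in 10% serum only and LRRC2 in 0.1% serum only. For each of these the filter favoured a difference in that direction. The CPM of WT and ΔLEO1 still overlapped for ZMYND10 in 10% serum and for DOCK3 in 0.1% serum.

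LEO1 is a subunit of the PAF1 complex, which travels with RNA polymerase II and acts in elongation, RNA processing and the modification of nucleosomes in transcribed genes. The cells were BJ-5ta, human fibroblasts immortalized with telomerase. Wild-type cells (WT) were compared with the ΔLEO1 line, labelled Leo1, which is 1 clone (clone 13) made with Cas9 and 2 guides to exons 1 and 2 of LEO1, so a difference of this clone and an effect of the missing gene cannot be told apart. Each genotype was grown in 10% serum or kept for 10 days in 0.1% serum, which gives 4 groups of 3 libraries of poly(A) RNA, numbered 1 to 12 through the groups. It is not stated whether the 3 libraries came from separate cultures, so the errors and p-values below may cover technical spread only.

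The interval 3p21 is a gene-dense stretch that is often lost from one chromosome copy in lung, kidney and other carcinomas. It holds a cluster of candidate tumour suppressor genes around RASSF1, several chromatin regulators that are mutated in kidney cancer (SETD2, BAP1 and PBRM1), the small GTPase RHOA and genes of the cell surface and the matrix such as LAMB2, DAG1 and COL7A1. Chemokine receptor genes also lie at its start, and 10 such genes and blood cell genes were looked for. None was a member, and CXCR6 and CCR2 had no count in any of the 12 libraries, which allows up to 3 counts in each.

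Gene counts per library ran from 26240632 to 45315560, and the added synthetic ERCC transcripts took 0.625% to 3.24% of all counts. LEO1 itself had 20.4 to 30.4 CPM in the WT libraries and 0.661 to 1.44 CPM in the ΔLEO1 libraries. All 10 fibroblast markers were expressed, with a summed level of 52464 to 76192 CPM, while EPCAM, KRT5 and CDH5 had between 0 and 6 counts in every library. Of the other marker lists, 2 of 5 epithelial genes passed the filter and their list summed to 318 to 462 CPM in WT and 841 to 1141 CPM in ΔLEO1 in 10% serum, and to 165 to 180 and 509 to 585 CPM in 0.1% serum. KRT18 was the higher of these in ΔLEO1, while KRT8, the other gene that passed, was lower there, at 53.5 to 63.0 CPM in WT and 23.1 to 27.0 CPM in ΔLEO1 in 10% serum and at 67.9 to 79.7 and 25.1 to 39.7 CPM in 0.1% serum. The blood list (1 of 6 genes passed, PTPRC) summed to 0.686 to 1.52 CPM in WT and to 2.25 to 7.65 CPM in ΔLEO1, the endothelial list (1 of 4, TEK) to 2.01 to 5.52 and 0.400 to 0.644 CPM, and the muscle list (2 of 4) to 18.3 to 80.5 and 32.0 to 113 CPM. Their part in the genotype differences below was not tested. The library with the highest number in its group (3, 6, 9 and 12) often lay away from the other 2, as in CDC25A below, and values without those 4 libraries are given where they bear on a result.

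Upstream sequences are shown for 4 members on which the results below turn. They are the 250 bases before the RefSeq start of each gene on GRCh38.p14, read in the direction of the gene. RRP9, a protein of the small nucleolar particle that processes ribosomal RNA, and PARP3, an ADP-ribosyltransferase of DNA break repair, point away from each other, and their GENCODE starts lie 404 bases apart. They are shown because the pair shares this stretch and moved in opposite directions in 10% serum. RRP9 is at chr3:51941905-51942154 on the minus strand and PARP3 at chr3:51942113-51942362 on the plus strand, and the capitals mark the 42 bases that both windows hold.
RRP9: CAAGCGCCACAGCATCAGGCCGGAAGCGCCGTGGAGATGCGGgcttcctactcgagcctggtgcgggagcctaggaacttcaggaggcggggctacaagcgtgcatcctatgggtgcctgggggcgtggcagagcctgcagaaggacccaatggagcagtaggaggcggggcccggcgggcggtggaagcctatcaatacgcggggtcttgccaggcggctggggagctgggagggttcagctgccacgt
PARP3: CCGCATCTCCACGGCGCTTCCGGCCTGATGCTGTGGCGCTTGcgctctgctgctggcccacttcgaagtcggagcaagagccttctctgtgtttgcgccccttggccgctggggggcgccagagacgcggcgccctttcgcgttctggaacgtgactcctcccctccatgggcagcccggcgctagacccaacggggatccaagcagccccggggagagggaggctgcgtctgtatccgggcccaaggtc

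SEMA3F, a secreted semaphorin, is shown because it had the lowest genotype value of all members in 10% serum. CDC25A, the phosphatase that activates cyclin-dependent kinases, is shown as a cell cycle gene called lower in 0.1% serum. That call was made on the ERCC scale and was lost under scaling on the genes. SEMA3F is at chr3:50154808-50155057 on the plus strand, with each match to the GC box GGGCGG on either strand in capitals. CDC25A is at chr3:48188418-48188667 on the minus strand, with its match to the E2F site TTTNNCGC in capitals.
SEMA3F: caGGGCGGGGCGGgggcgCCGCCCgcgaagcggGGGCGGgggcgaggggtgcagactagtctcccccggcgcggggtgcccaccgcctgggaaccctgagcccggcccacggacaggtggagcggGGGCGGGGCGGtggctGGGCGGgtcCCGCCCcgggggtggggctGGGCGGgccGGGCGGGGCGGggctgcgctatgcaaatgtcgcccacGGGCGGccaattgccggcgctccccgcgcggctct
CDC25A: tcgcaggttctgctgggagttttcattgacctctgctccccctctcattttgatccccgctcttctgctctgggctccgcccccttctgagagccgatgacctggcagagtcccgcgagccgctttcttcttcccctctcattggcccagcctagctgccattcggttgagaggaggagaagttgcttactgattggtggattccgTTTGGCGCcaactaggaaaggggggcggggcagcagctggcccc

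The upstream windows of 106 of the 117 members were found in RefSeq by symbol. The GC box was in 70.8% of them, in 67.7% of the 10215 windows of tested genes and in 42.6% of all 35116 windows. SEMA3F held 12 overlapping or separate copies. The E2F site was in 5 of the 106 (4.72%: PTPN23, CDC25A, NME6, ARIH2 and GLT8D1), in 9.18% of the windows of tested genes and in 5.92% of all windows. The cell cycle homology region TTTGAA was in 0.943%, 8.41% and 13.3%, the CCAAT box in 34.9%, 35.2% and 32.0%, the TATA box TATAAA in 4.72%, 5.08% and 10.7%, the ETS core CCGGAA in 30.2%, 25.6% and 14.5% and the AP-1 site TGANTCA in 4.72%, 3.83% and 6.57%. The median ratio of observed to expected CpG was 0.827 in the members, 0.826 in the tested genes and 0.558 in all windows. Apart from TTTGAA, which of the members only SEMA3B held, the shares lay within 5 percentage points of those of the tested genes.

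The genotype comparison asked how each gene of the interval stood in ΔLEO1 cells in each serum. Most of the members were lower in ΔLEO1 than in WT cells relative to the rest of the transcriptome, in both sera, by a modest amount. The median member was 0.38 log2 units below the median of all tested genes in 10% serum, a ratio of 0.769, and 0.26 units below it in 0.1% serum, a ratio of 0.835. In 10% serum 99 of 117 members (84.6%) were below the median gene and in 0.1% serum 92 (78.6%). In both sera 86 members (73.5%) were below it, against 38.8% of all tested genes. These values are log2 fold changes of edgeR on ERCC-scaled counts, less the median of all tested genes, which was 0.35 in 10% and 0.27 in 0.1% serum. On the ERCC scale itself the median member was at −0.03 and 0.01. In bulk RNA, fewer cells of a type and less RNA per cell cannot be told apart.

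The lower and upper quartiles of the members were −0.69 and −0.12 in 10% serum and −0.51 and −0.06 in 0.1% serum. Over all tested genes the quartiles were −0.37 and 0.28 in 10% serum, and −0.30 and 0.26 in 0.1% serum. Of the members, 48 (41.0%, against 20.4% of all genes) were at least 0.5 below the median gene in 10% serum, and 3 (2.56%, against 12.9%) at least 0.5 above it. Without the highest-numbered library of each group the medians were −0.40 and −0.24.

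The shift was present in every library. Taking the median over the members of log2 CPM, centred on each gene's mean and on all tested genes of the library, the WT libraries in 10% serum were at 0.17, 0.17 and 0.21 and the ΔLEO1 libraries at −0.20, −0.27 and −0.17. In 0.1% serum the WT libraries were at 0.15, 0.12 and 0.17 and the ΔLEO1 libraries at −0.07, −0.14 and −0.11. The groups did not overlap in either serum. Since the members were chosen on this contrast, that is no sign of stability.

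**Figure D1:**
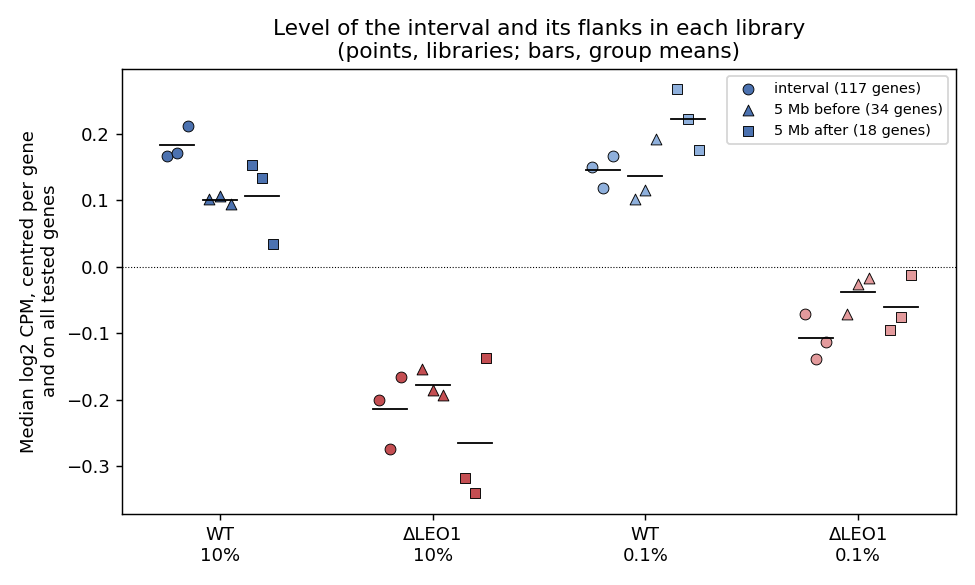
Median level of the interval (circles), of the 34 genes in the 5 Mb before it (triangles) and of the 18 genes in the 5 Mb after it (squares) in each of the 12 libraries, as log2 CPM centred per gene and on all tested genes. Points are libraries and bars are means of 3 libraries. All WT points lie above 0 and all ΔLEO1 points below it, for the flanks as well as for the interval.

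The groups' CPM did not overlap, with ΔLEO1 lower, for 74 of 117 members (63.2%) in 10% serum, where 29.6% of all tested genes did the same, and for 48 members (41.0%) in 0.1% serum, against 21.8%. ΔLEO1 was higher without overlap in 7 members in 10% serum (5.98%, against 29.8%) and in 5 in 0.1% serum (4.27%, against 19.7%). A lower level without overlap in both sera was found for 44 members (37.6%, against 16.5%) and a higher one for 2, HYAL3 and UQCC5 (1.71%, against 13.8%). On the ERCC scale, edgeR's likelihood ratio test called 5 members lower in 10% serum (4.27%, against 4.64% of all genes) and 0 higher (against 4.20%, with 2 at an unadjusted p under 0.05), 2 lower in 0.1% serum (1.71%, against 3.59%) and 1 higher (0.855%, against 3.85%). With TMM factors on the genes in place of the ERCC scale, 57 members were called lower (48.7%, against 21.8%) and 4 higher (3.42%, against 17.7%) in 10% serum, and 37 lower (31.6%, against 17.6%) and 5 higher (4.27%, against 15.4%) in 0.1% serum. These counts come from the contrast that chose the interval and are a description.

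The median member was below the median gene in each step of the interval, least so from 48 to 49 Mb. In steps along the chromosome, the medians in 10% and 0.1% serum were −0.32 and −0.19 from 45.9 to 48 Mb (18 genes), −0.24 and −0.09 from 48 to 49 Mb (20 genes), −0.40 and −0.33 from 49 to 50 Mb (25 genes), −0.59 and −0.31 from 50 to 51 Mb (19 genes), −0.51 and −0.37 from 51 to 52 Mb (12 genes) and −0.34 and −0.23 from 52 to 53.2 Mb (23 genes). From 49 to 50 Mb 24 of 25 members were below the median gene in 10% serum, and from 45.9 to 48 Mb 12 of 18 were. From 48 to 49 Mb 16 of 20 were below it in 10% serum and 12 of 20 in 0.1% serum.

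The bounds did not mark where the shift began or ended. The 34 tested genes in the 5 Mb before the start had medians of −0.21 and −0.16, with 29 of 34 below the median gene in 10% serum, and the 18 genes in the 5 Mb after the end had −0.31 and −0.26, with 15 of 18 below it. The 32 genes from 5 to 10 Mb before the start were at 0.00 and 0.03. After the end, the 11 genes from 5 to 10 Mb had medians of −0.21 and −0.20 and the 10 genes from 10 to 15 Mb −0.18 and 0.02. The 622 genes of chromosome 3 outside the interval, flanks included, had medians of −0.01 and 0.00. Medians of the 23 chromosomes ran from −0.16 (chromosome 4) to 0.11 (chromosome 19) in 10% serum and from −0.25 (chromosome 4) to 0.11 (chromosome 22) in 0.1% serum. The 107 genes of the long arm of chromosome 4 beyond 140 Mb had larger shifts, −0.43 and −0.51.

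At the bounds themselves, the last tested genes outside the start were LIMD1 (−0.21 in 10% serum), SACM1L (−0.08) and LZTFL1 (−0.58), and the first members were FYCO1 (−0.61), LRRC2 (0.11) and ALS2CL (−2.00). Near the end, the members SFMBT1 and PRKCD were at −0.94 and −0.34, and the next genes outside were TKT (0.36), DCP1A (−0.51) and ENSG00000271976 (−0.59).

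**Figure D2:**
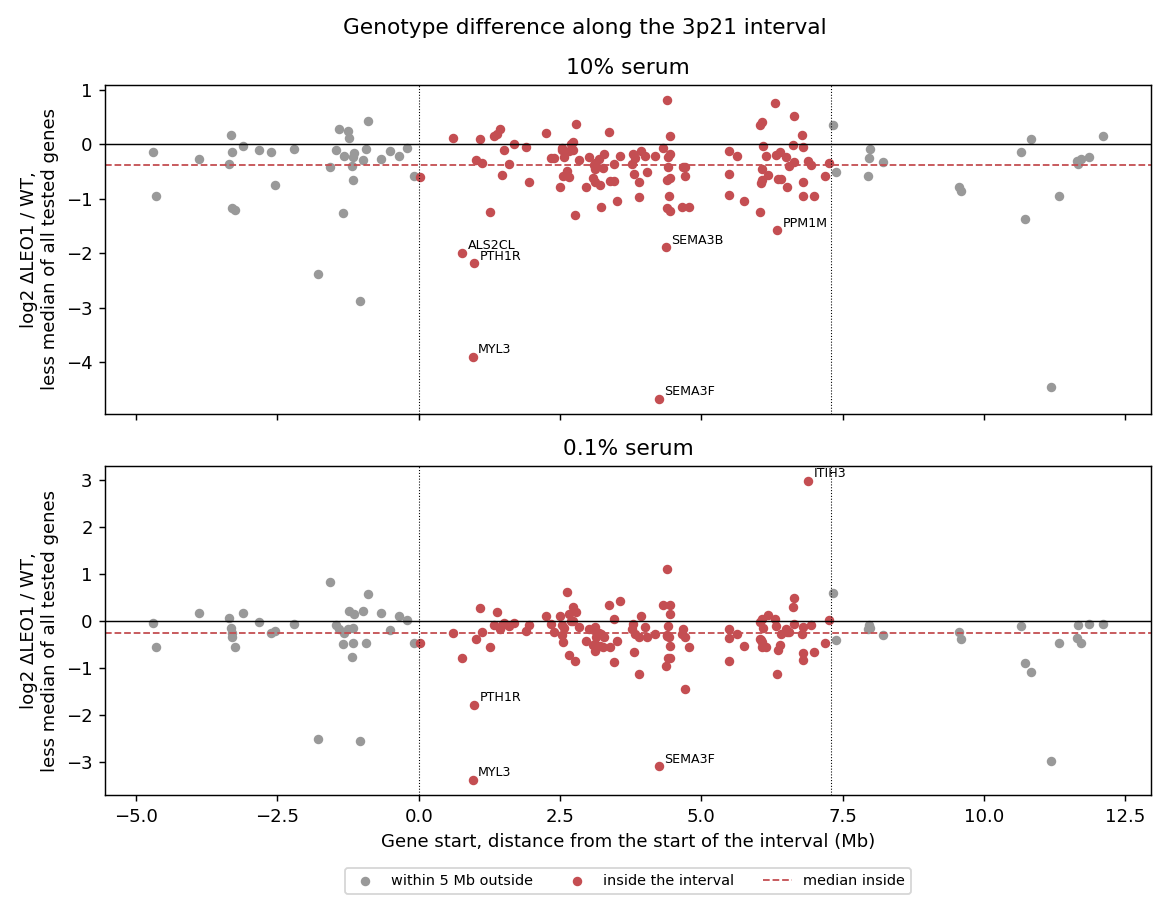
Log2 ratio of ΔLEO1 to WT less the median of all tested genes (y axis) against the distance of the gene start from the start of the interval in Mb (x axis), in 10% and 0.1% serum. Each point is a gene, red inside the interval and grey within 5 Mb outside it, and the dashed line is the median of the 117 members (−0.38 and −0.26). Most red points lie between 0 and −1, and grey points on both sides are lower than 0 as well.

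The members are rich in G and C. Their longest transcripts had a median GC content of 56.8%, against 47.9% over all tested genes, and 64 of 117 lay above the upper quartile of GC content of the tested genes. Measured against the tested genes between the same quartiles of GC content, an alternative chosen after the data were seen, the median differences were −0.35 and −0.24. Of the members 114 are annotated as protein coding, 1 as antisense (KIF9-AS1), 1 as a polymorphic pseudogene (GPX1) and 1 awaits testing (ENSG00000280173), and 47 lie on the plus and 70 on the minus strand. The exons of 46 members overlap those of another gene over more than 5% of their bases, and RPL29, GPX1 and TMA7 share more than 5% of their 58-base stretches with other transcripts. Whether reads were counted by strand is not given in the sources used here, so antisense partners may share counts.

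Among the secreted and cell surface members, the pair of class 3 semaphorin genes in the tumour suppressor cluster was low in ΔLEO1. Semaphorins of this class are secreted guidance factors that bind neuropilins and plexins. SEMA3F had 4.61, 6.02 and 5.38 CPM in the WT libraries in 10% serum and 0.129, 0.309 and 0.203 CPM in the ΔLEO1 libraries. After 10 days in 0.1% serum its level was 3.15, 3.58 and 6.21 CPM in WT and 0.403, 0.523 and 0.567 CPM in ΔLEO1. The groups did not overlap in either serum, and the relative log2 differences were −4.67 and −3.09. SEMA3F passed the filter through WT libraries only, so a lower level in ΔLEO1 was built into its selection.

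SEMA3B, which lies near it, was more abundant. It had 60.5, 66.5 and 79.0 CPM in WT and 17.8, 15.4 and 21.9 CPM in ΔLEO1 in 10% serum. In 0.1% serum WT had 27.2, 27.3 and 58.1 CPM and ΔLEO1 18.5, 20.1 and 17.6 CPM, so that WT library 9 carried a large share of that difference. The relative differences were −1.89 and −0.96, and the latter was −0.47 without the highest-numbered libraries.

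LAMB2, the β2 chain of laminin in basement membranes, was 975 ± 32.6 CPM in WT and 443 ± 33.8 CPM in ΔLEO1 in 10% serum (SD, n = 3), without overlap. In 0.1% serum it was 387 ± 104 and 281 ± 86.0 CPM and the groups overlapped. COL7A1, the collagen of anchoring fibrils, was 262 ± 4.42 and 173 ± 9.01 CPM in 10% serum, and 180 ± 25.7 and 98.0 ± 45.7 CPM in 0.1% serum. Its 0.1% serum difference of −0.72 was −1.30 without ΔLEO1 library 12. DAG1, which encodes the laminin receptor dystroglycan, differed by −0.22 and 0.43.

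Of the 11 members in this list of surface, matrix and secreted genes, 10 were below the median gene in 10% serum and 5 in 0.1% serum, and the median went from −0.60 to 0.11. ITIH3, a heavy chain that is joined to hyaluronan, was the member with the highest relative value in 0.1% serum, 2.98, or 3.77 without WT library 9, and is described with the serum response.

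MYL3, PTH1R, HYAL3, NAA80, UQCC5, GNL3, TCTA and PLXNB1 fall outside the rule for named genes and were chosen after their values were seen. PTH1R, the receptor of parathyroid hormone, had 3.76, 4.06 and 4.62 CPM in WT and 0.876, 0.728 and 1.13 CPM in ΔLEO1 in 10% serum. The 0.1% serum levels were 7.72, 7.39 and 5.73 CPM in WT and 2.73, 2.83 and 1.44 CPM in ΔLEO1. MYL3, a myosin light chain of heart and slow muscle whose gene overlaps the start of PTH1R on the other strand, was 2.34 ± 0.153 CPM in WT and 0.164 ± 0.0800 CPM in ΔLEO1 in 10% serum, and 1.61 ± 0.479 and 0.187 ± 0.0827 CPM in 0.1% serum. Both genes were lower in all ΔLEO1 libraries than in any WT library of the same serum. MYL3 passed the filter through WT libraries only, so a lower level in ΔLEO1 was built into its selection. It had 4 to 11 counts in the ΔLEO1 libraries.

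In the tumour suppressor cluster around RASSF1, 15 of the 18 listed genes were members. In 10% serum 13 of the 15 were below the median gene, with a median of −0.51, and 9 had groups that did not overlap with ΔLEO1 lower, against 29.6% of all tested genes, and 1 with ΔLEO1 higher. In 0.1% serum 11 were below the median gene, with a median of −0.31, and 8 were lower without overlap, against 21.8% of all tested genes, and 2 higher. GNAI2, an inhibitory G protein α subunit, had 558 to 613 CPM in WT and 531 to 559 CPM in ΔLEO1 in 10% serum but 359 to 468 and 480 to 533 CPM in 0.1% serum, a relative difference of −0.07 and 0.34. TMEM115, a Golgi membrane protein, differed by −0.62 and −0.52, and the RNA-binding splicing regulators RBM6 and RBM5 by −0.51 and −0.22 in 10% serum.

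HYAL3, a gene of the hyaluronidase family in the same cluster, was the member with the highest value in 10% serum. It had 3.10, 3.50 and 4.62 CPM in WT and 6.75, 5.89 and 6.30 CPM in ΔLEO1. In 0.1% serum it had 2.73, 2.74 and 3.52 CPM in WT and 6.27, 6.15 and 6.60 CPM in ΔLEO1. The relative differences were 0.81 and 1.11. NAA80, an actin acetyltransferase whose exons overlap those of HYAL3 on the same strand, went the other way, with 5.73 ± 0.439 CPM in WT and 2.60 ± 0.118 CPM in ΔLEO1 in 10% serum. Since 14.3% of the exon bases of HYAL3 are shared with other genes, the split of reads between the pair is uncertain.

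RRP9 and PARP3, whose upstream windows are shown above, went opposite ways in 10% serum. RRP9 had 9.51, 11.3 and 12.9 CPM in WT and 13.4, 14.2 and 14.8 CPM in ΔLEO1. PARP3 had 36.6, 37.7 and 41.2 CPM in WT and 16.2, 17.1 and 15.5 CPM in ΔLEO1. Neither gene's groups overlapped, and the relative differences were 0.35 and −1.24.

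In 0.1% serum RRP9 was at −0.01, with overlapping groups, and PARP3 at −0.38, with 25.3 to 30.5 CPM in WT and 21.3 to 21.6 CPM in ΔLEO1. Altogether 7 pairs of members start back to back, with starts at most 1000 bases apart or overlapping by at most 500. In 5 of them both genes were on the same side of the median gene in 10% serum and in all 7 in 0.1% serum. The difference between partners had a median of 0.32 and 0.23, and RRP9 with PARP3 had the largest in 10% serum, 1.59.

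Of 7 chromatin regulators, which include the histone methyltransferase SETD2, the histone deubiquitinase BAP1 and the remodelling subunits PBRM1 and SMARCC1, 6 were below the median gene in 10% serum and 7 in 0.1% serum. Their medians were −0.35 and −0.23. WDR82, a subunit of a histone methyltransferase complex, had 156 to 159 CPM in WT and 100 to 104 CPM in ΔLEO1 in 10% serum, and 179 to 204 and 123 to 138 CPM in 0.1% serum, without overlap in either. SETD2 differed by −0.35, BAP1 by −0.23 and PBRM1 by −0.32 in 10% serum, and SMARCC1 by 0.01.

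All 15 listed genes of RNA and ribosome function were members, with 13 below the median gene in 10% and 15 in 0.1% serum, and medians of −0.28 and −0.27. RBM15B, a component of the complex that writes N6-methyladenosine, had 99.6, 106 and 102 CPM in WT and 55.1, 50.2 and 56.0 CPM in ΔLEO1 in 10% serum. Low serum gave 128, 132 and 115 CPM in WT and 74.8, 71.0 and 67.7 CPM in ΔLEO1, and its relative differences were −0.94 and −0.85. RBM15B shares more than 5% of its exon bases with DCAF1. The ribosomal protein gene RPL29 differed by −0.02 and −0.15, and the glutaminyl-tRNA synthetase QARS1 by −0.28 and −0.25.

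In the ubiquitin pathway 9 of 10 members were below the median gene in 10% serum and 8 in 0.1% serum, with medians of −0.21 and −0.17. UBA7, which activates the ubiquitin-like protein ISG15, had 28.6, 31.0 and 32.2 CPM in WT and 14.4, 18.1 and 14.3 CPM in ΔLEO1 in 10% serum. In 0.1% serum it had 35.9 to 36.2 CPM in WT and 13.7 to 22.6 CPM in ΔLEO1. The deubiquitinases USP19 and USP4 differed by −0.75 and −0.67 in 10% serum, the ligase ARIH2 by −0.23 and KLHL18, a cullin adaptor, by 0.19.

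Among the metabolic enzymes, 12 of 15 members were below the median gene in 10% serum and 10 in 0.1% serum, with medians of −0.45 and −0.42. GPX1, the glutathione peroxidase that reduces hydrogen peroxide, had 125, 127 and 128 CPM in WT and 81.6, 79.0 and 77.3 CPM in ΔLEO1 in 10% serum. The levels in 0.1% serum were 103, 111 and 110 CPM in WT and 66.1, 64.7 and 54.0 CPM in ΔLEO1, without overlap in either serum.

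ALAS1, the first enzyme of heme synthesis, was higher in ΔLEO1 in 10% serum, with 17.4, 17.6 and 20.9 CPM in WT and 30.3, 31.9 and 31.2 CPM in ΔLEO1. In 0.1% serum WT had 29.9 to 34 CPM and ΔLEO1 32.4 to 36.3 CPM, so that the groups overlapped. The relative differences were 0.75 and 0.06. IP6K2, an inositol hexakisphosphate kinase, differed by 0.37 and 0.20 and ABHD14A by 0.40 and 0.04. ABHD14A shares 46.7% of its exon bases with other genes, so its count is uncertain. The other members that were higher without overlap in 10% serum were RRP9, HYAL3, UQCC5 and GNL3.

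Of the 11 members with signalling roles, 10 were below the median gene in 10% serum and 7 in 0.1% serum, with medians of −0.34 and −0.12. PPM1M, a phosphatase of the PP2C family, had 25.7, 27.6 and 27.6 CPM in WT and 8.97, 8.34 and 9.97 CPM in ΔLEO1 in 10% serum. With 0.1% serum the levels were 31.8, 33.3 and 40.5 CPM in WT and 16.0, 15.1 and 16.5 CPM in ΔLEO1. The relative differences were −1.58 and −1.12. RHOA, which had the highest level of all members per kilobase of exon, was 724 ± 63.6 and 562 ± 21.8 CPM in 10% serum and 440 ± 10.9 and 461 ± 21.9 CPM in 0.1% serum, a relative difference of −0.36 and 0.04.

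In the list of cytoskeleton and transport genes 9 of 11 members were below the median gene in 10% serum and 10 in 0.1% serum, with medians of −0.61 and −0.24. MAP4, the main microtubule-associated protein outside neurons, was 877 ± 26.6 and 549 ± 37.2 CPM in 10% serum and 682 ± 18.3 and 632 ± 53.9 CPM in 0.1% serum. NCKIPSD, an SH3 domain protein that binds the adaptor NCK, had 26.8 to 31.8 CPM in WT and 10.8 to 12.2 CPM in ΔLEO1 in 10% serum, and 19.4 to 22.9 and 11.1 to 13.8 CPM in 0.1% serum. ALS2CL, a relative of the Rab5 exchange factor alsin, had 10.2, 10.0 and 12.4 CPM in WT and 2.94, 2.80 and 2.18 CPM in ΔLEO1 in 10% serum.

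Of the 9 members of the endoplasmic reticulum and the secretory path, 8 were below the median gene in each serum, with medians of −0.55 and −0.37, and SPCS1, a subunit of the signal peptidase, differed by −0.70 and −0.67. Of 8 members in DNA damage and replication, 7 and 5 were below it, with medians of −0.22 and −0.14. CDC25A differed by 0.21 and 0.11 and the helicase RAD54L2 by −0.22 and −0.27.

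**Figure D3:**
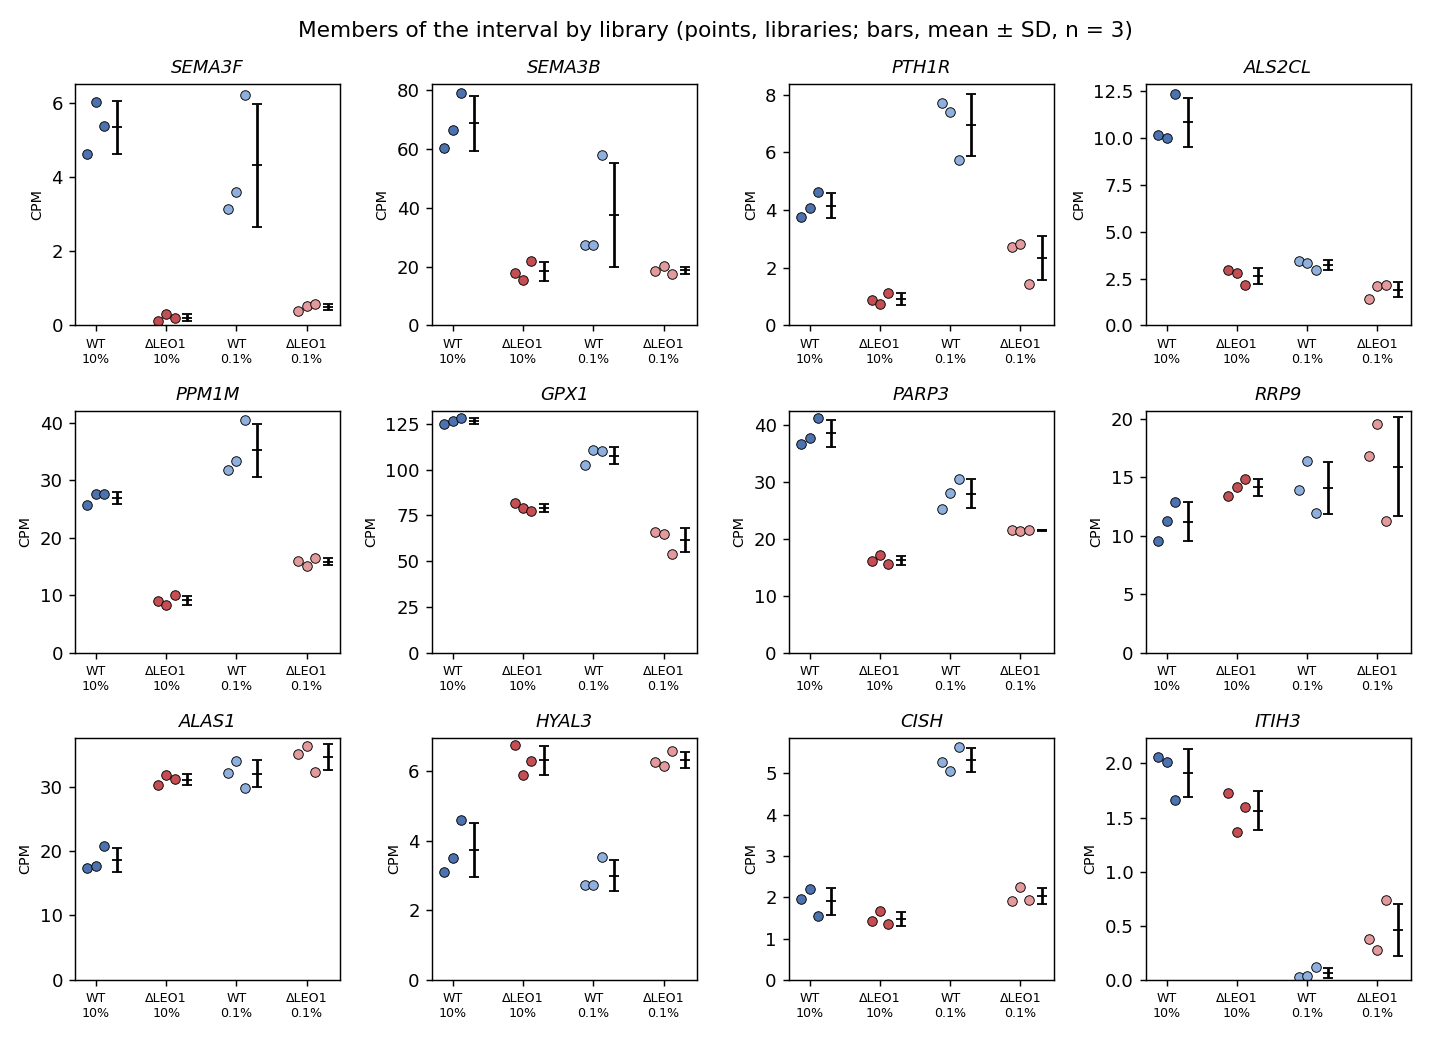
CPM of 12 members in each library, on linear axes that start at 0. Points are libraries, and bars give the mean and SD of 3 libraries of WT and ΔLEO1 cells in 10% and 0.1% serum. SEMA3F, PTH1R, PPM1M and GPX1 are lower in ΔLEO1 in both sera, HYAL3 is higher in both, RRP9 and PARP3 go opposite ways in 10% serum, and CISH and ITIH3 separate the genotypes in 0.1% serum.

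The values of the 2 sera were correlated across the members, no more closely than across all genes. Pearson's r between them was 0.756 and Spearman's rho 0.735 over the 117 members, and 0.881 and 0.744 over all 13236 tested genes, all of which share the library preparation and the clone. By direction, 83.8% of the members lay on the same side of the median gene in both, against 77.7% of all tested genes. The 2 contrasts have no library in common. CISH, a suppressor of cytokine signalling, was among the members that lay far from this line. It had 1.95, 2.19 and 1.56 CPM in WT and 1.42, 1.66 and 1.35 CPM in ΔLEO1 in 10% serum, but 5.29, 5.07 and 5.64 CPM in WT and 1.90, 2.24 and 1.93 CPM in ΔLEO1 in 0.1% serum.

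**Figure D4:**
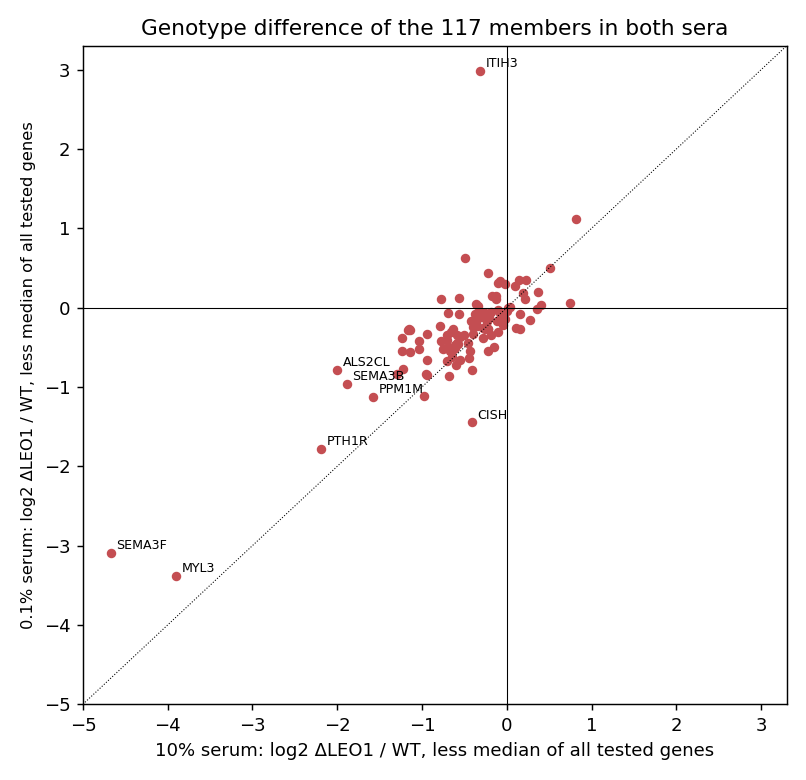
Log2 ratio of ΔLEO1 to WT less the median of all tested genes for the 117 members, in 10% serum (x axis) and 0.1% serum (y axis), 1 point per gene and a dotted line of equality. Most points lie below 0 on both axes, SEMA3F, MYL3 and PTH1R are the lowest in both sera, and ITIH3 lies alone at −0.31 and 2.98.

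The serum comparison asked which members changed when fibroblasts were starved of serum. It was not used to choose the interval, but it shares its libraries with the genotype comparisons that were. In WT cells 47 of 117 members fell in 0.1% serum (40.2%, against 36.1% of all tested genes) and 1 rose (0.855%, against 0.944%). In ΔLEO1 cells 40 members fell (34.2%, against 47.2%) and 1 rose (0.855%, against 0.975%). These calls come from edgeR's likelihood ratio test on ERCC-scaled counts at a Benjamini-Hochberg adjusted p under 0.05 over all 13236 genes. The median member changed by −1.01 log2 units in WT and −0.95 in ΔLEO1, and the median tested gene by −0.97 and −1.05. In both genotypes 114 of 117 members had a negative value, and 31 fell in both (26.5%, against 28.3% of all genes).

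The counts of calls turned on single libraries. With the highest-numbered library of each group left out, 90 members fell in WT and 109 in ΔLEO1 of 115 that passed the filter, while 72.4% and 93.1% of all tested genes fell. Leaving out 1 library at a time moved the count in WT cells from 8 (without WT library 7, 8.64% of all genes) to 87 (without ΔLEO1 library 12, 65.3% of all genes). In ΔLEO1 cells it moved from 2 (without ΔLEO1 library 10, 4.86% of all genes) to 109 (without ΔLEO1 library 12, 88.4% of all genes). The calls over all genes thus moved along with those of the members. The share of ERCC counts was 1.09% in ΔLEO1 library 12 and 1.88% and 3.24% in the other 2 libraries of that group.

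ITIH3 had the most negative serum change in WT and ΔLEO1, and is among the members counted above as falling in each. It passed the filter through its 10% serum libraries alone, so a lower level in 0.1% serum was built into its selection and no p-value is given. It had 75, 79 and 65 counts (2.06, 2.02 and 1.66 CPM) in WT cells in 10% serum and 1, 1 and 4 counts in 0.1% serum. The ratio of the ERCC-scaled sums was 0.0164, with an exact 95% interval of 0.00594 to 0.0362 that covers counting error only. In ΔLEO1 cells it had 67, 62 and 71 counts in 10% serum and 13, 9 and 26 in 0.1% serum, a ratio of 0.119 (0.0847 to 0.163). The fitted log2 changes were −5.98 ± 0.73 and −2.76 ± 0.58 (SE).

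Several genes of the matrix and its receptors fell beyond the median gene in both genotypes. LAMB2 changed by −2.44 ± 0.46 (edgeR adjusted p = 7.02e-06) in WT and −1.63 ± 0.45 (adjusted p = 0.00462) in ΔLEO1, DAG1 by −2.04 ± 0.46 (adjusted p = 0.000241) and −1.46 ± 0.45 (adjusted p = 0.0109), and COL7A1 by −1.63 ± 0.46 (adjusted p = 0.00417) and −1.82 ± 0.46 (adjusted p = 0.00172). Of the 11 members in that list, 9 fell in WT, against 36.1% of all tested genes, and 5 in ΔLEO1, against 47.2%, and 0 rose. Both counts hold ITIH3, whose fall was built into its selection. RHOA changed by −1.76 ± 0.45 (adjusted p = 0.00157) and −1.43 ± 0.45 (adjusted p = 0.0117). In ΔLEO1 cells the calls of LAMB2 and COL7A1 were lost without library 10, and those of DAG1 and RHOA without library 4, 10 or 11.

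PFKFB4, a bifunctional enzyme that sets the level of the glycolytic regulator fructose 2,6-bisphosphate, had 18.4, 15.8 and 18 CPM in WT cells in 10% serum and 6.68, 6.36 and 3.85 CPM in 0.1% serum. In ΔLEO1 cells it had 12.2, 14.6 and 10.5 CPM and then 12.2, 11.3 and 6.43 CPM. On the ERCC scale it changed by −2.64 ± 0.51 and −1.60 ± 0.49 and was called lower in both genotypes. In ΔLEO1 the call was lost without library 4 and under scaling on the genes. ALS2CL changed by −2.77 ± 0.53 and −1.63 ± 0.52 and was also called lower in both. Its ΔLEO1 call was lost without ΔLEO1 library 4, 10 or 11. PFKFB4 and ALS2CL were also named by the interaction, so no p-values are given for them.

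CDC25A, whose promoter window holds the E2F site shown above, fell by 1.63 ± 0.51 log2 units in WT (edgeR adjusted p = 0.0111) and by 1.81 ± 0.51 in ΔLEO1 (adjusted p = 0.00601). Its level in 10% serum was 6.55, 7.12 and 3.06 CPM in WT and 7.27, 8.98 and 4.16 CPM in ΔLEO1, the last of each group being the highest-numbered library. In 0.1% serum it was 3.89 to 4.21 CPM in WT and 4.22 to 4.66 CPM in ΔLEO1. The call was lost in WT without library 1, 2, 7 or 9, in ΔLEO1 without library 4 or 10, and in both under scaling on the genes. TCTA, a short membrane protein gene beside RHOA that was chosen after its values were seen, fell by 1.62 ± 0.50 in WT. With scaling on the genes it changed by −0.63 ± 0.14 in WT and −0.03 ± 0.15 in ΔLEO1.

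LRRC2, a leucine-rich repeat gene, was the 1 member counted above as higher in 0.1% serum in each genotype. It passed the filter through its 0.1% serum libraries alone, so a higher level there was built into its selection and no p-value is given. It had 0.494, 0.281 and 0.306 CPM in WT in 10% serum and 4.99, 4.27 and 2.93 CPM in 0.1% serum, and 0.387, 0.353 and 0.473 CPM in ΔLEO1 in 10% serum and 3.94, 5.04 and 2.72 CPM in 0.1% serum. The fitted log2 changes were 2.44 ± 0.58 and 1.99 ± 0.56 (SE).

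Scaling on the genes (TMM factors on the gene counts) measures each member against the other genes instead of the spike-in, and gave a different picture of the same counts. In WT 20 members fell (17.1%, against 16.6% of all genes) and 11 rose (9.40%, against 16.0%), and in ΔLEO1 9 fell (7.69%, against 12.9%) and 25 rose (21.4%, against 16.5%). ALS2CL, LAMB2, DAG1, RHOA, COL7A1, GPX1 and GMPPB fell in both genotypes on this scale. ABHD14A, PTH1R, C3orf62, IP6K2, RPL29 and FYCO1, an adaptor of autophagosome transport, rose in both, and PARP3 and PLXNB1 fell in WT and rose in ΔLEO1. The counts above also hold ITIH3 (lower) and LRRC2 (higher), whose directions were built into their selection. ABHD14A rose by 1.28 ± 0.21 in WT (edgeR adjusted p = 1.77e-08) and by 1.02 ± 0.20 in ΔLEO1 (adjusted p = 7.99e-06). On the ERCC scale ABHD14A changed by 0.28 and −0.17 and FYCO1 by −0.44 and −0.39, and neither was called.

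By function, on the ERCC scale, 7 of the 15 members of the tumour suppressor cluster fell in WT and 5 in ΔLEO1, 7 and 5 of 11 signalling genes, 6 and 8 of 15 metabolic enzymes, 5 and 2 of 11 cytoskeleton and transport genes, 4 and 5 of 10 ubiquitin genes, 4 and 3 of 8 genes of DNA damage and replication, 3 and 3 of 9 of the secretory path, 1 and 5 of 15 of RNA function, and 1 and 0 of 7 chromatin regulators. Over all tested genes 36.1% fell in WT and 47.2% in ΔLEO1. No list had a member that rose. The chromatin gene was PBRM1, with −1.11 ± 0.46 in WT (edgeR adjusted p = 0.0445) and −0.92 ± 0.45 in ΔLEO1 (adjusted p = 0.0707). Its WT call was lost with the quasi-likelihood test, DESeq2, scaling on the genes, no filter, and without library 1, 2, 5, 7, 8, 9 or 10. SETD2, SMARCC1 and BAP1 were called in WT without library 3, 11 or 12 and without the highest-numbered libraries. In those fits 57.0%, 59.3%, 65.3% and 72.4% of all tested genes fell in WT. Whether the chromatin regulators differ from other genes in their serum response was not tested.

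The interaction asked whether the serum response of a member differed between ΔLEO1 and WT cells. It equals the genotype difference in 0.1% serum less that in 10% serum, the values by which the interval was chosen, so it is described here without p-values. On the ERCC scale edgeR's likelihood ratio test called 0 of the members, against 0.219% of all tested genes. The quasi-likelihood test and DESeq2 on that scale called 0 as well, and 1 member had an unadjusted p under 0.05 by the likelihood ratio test. That member was ITIH3, with a difference of 3.22 ± 0.91 log2 units between its responses (SE), and 3.71 without ΔLEO1 library 11, where it was called. SEMA3F (1.51 ± 0.80), ALS2CL (1.14 ± 0.72), PFKFB4 (1.04 ± 0.68) and CISH (−1.11 ± 0.74) followed. The median interaction over the members was 0.06, and over all tested genes −0.07.

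With TMM factors on the genes 8 members were called for the interaction (6.84%, against 4.08% of all genes), which is again a description. The response was higher in ΔLEO1 for ITIH3 (3.10 ± 0.60), PFKFB4 (1.35 ± 0.38), ALS2CL (1.30 ± 0.29), PARP3 (0.89 ± 0.17), PLXNB1, a semaphorin receptor (0.84 ± 0.20), and MAP4 (0.59 ± 0.16). It was lower for CISH (−1.01 ± 0.28) and ALAS1 (−0.60 ± 0.18). Within a genotype, the serum change of CISH was 1.41 ± 0.19 in WT and 0.39 ± 0.21 in ΔLEO1. That of ALAS1 was 0.69 ± 0.13 in WT and 0.09 ± 0.12 in ΔLEO1. Both genes were picked by the interaction, so no p-values are given for them.

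**Figure D5:**
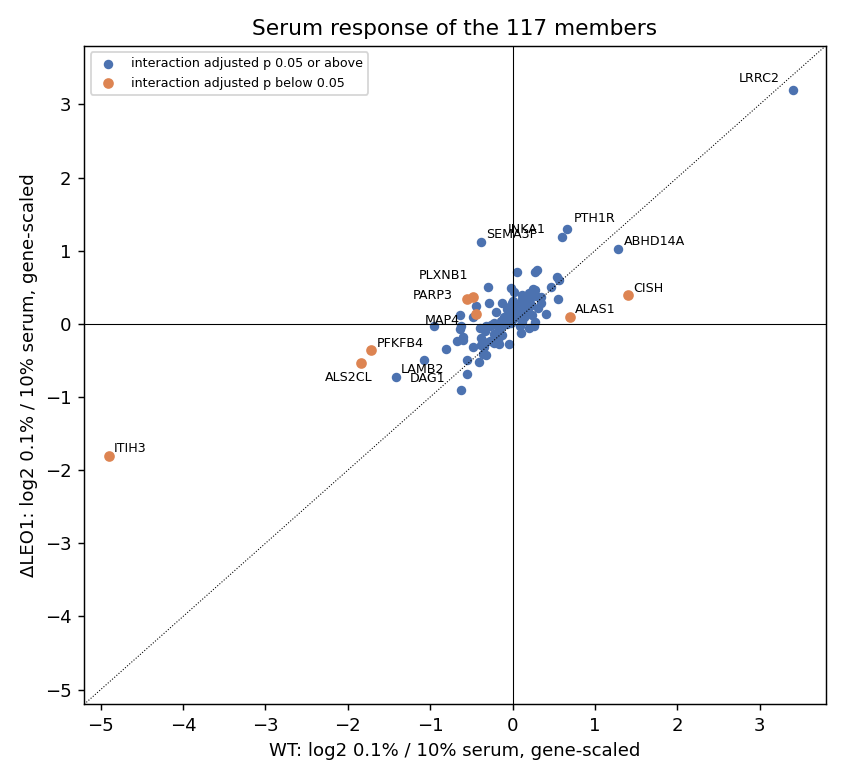
Serum response of the 117 members on the gene scale (TMM), as the log2 ratio of 0.1% to 10% serum in WT (x axis) and ΔLEO1 (y axis), 1 point per gene with a dotted line of equality. The 8 orange points are the members called for the interaction on this scale, with ITIH3 at −4.90 in WT and −1.80 in ΔLEO1, and LRRC2 lies at the upper right with 3.40 and 3.20.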

How the data were processed

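RNA sequencing counts of 12 libraries were analysed. The authors sequenced poly(A) RNA with ERCC transcripts added, aligned the 58-base paired reads with STAR and counted them in exons with featureCounts 1.5.1, and deposited the raw counts of genes and of ERCC transcripts, not normalized. The submitters' processing notes name STAR 2.7.10a and bcl2fastq 2.20.0.422. The annotation release and the strand setting are not given in the sources used here. Positions came from GENCODE v29 on GRCh38 and upstream sequences from RefSeq on GRCh38.p14.

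The 13236 genes that exceeded 1 CPM in at least 3 libraries were fitted in edgeR 4.0.16 (R 4.3.3) with all 12 libraries, 4 groups and an effective library size of the ERCC total times a TMM factor on the ERCC transcripts. Likelihood ratio tests were two-sided and adjusted by Benjamini-Hochberg over all tested genes. The SE of a fitted log2 change was taken from its test, as the absolute change divided by the square root of the likelihood ratio statistic. The alternatives were the quasi-likelihood test, DESeq2 1.42.0, scaling on the genes, other filters, a threshold of 0.01 and libraries left out. The fits were tested on simulated data.

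The members, the gene lists and the tests were chosen with earlier results of these data known. The named genes were the 3 members nearest each bound, the 5 lowest and 5 highest of each genotype comparison with at least 10 CPM in a group, the 3 most abundant, the 5 called with the largest change in each direction of each serum comparison, the 5 lowest p of the interaction and up to 4 abundant members of each list. Some genes that this rule names are not reported here.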

Additional observations from a re-analysis of the deposited data

How the results depend on the processing

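No paired analysis was possible because the labels number the libraries 1 to 12 through the groups. The median genotype difference of the members kept its direction under every alternative. It ran from −0.39 to −0.35 in 10% serum and from −0.27 to −0.21 in 0.1% serum when 1 library was left out, and was −0.17 in 0.1% serum with no filter on low counts. The counts of calls moved widely. Members that fell in 0.1% serum were 47 in WT and 40 in ΔLEO1, against 36.1% and 47.2% of all tested genes. With no filter 27 and 18 fell, against 10.5% and 13.3% of 32285 genes. TMM on the genes gave 20 and 9, against 16.6% and 12.9%. DESeq2 size factors on the genes gave 20 and 9, against 16.4% and 12.9%. At a threshold of 0.01 there were 12 and 5. Without the highest-numbered libraries there were 90 and 109, against 72.4% and 93.1%. The quasi-likelihood test gave 25 in ΔLEO1, against 36.4%. Members that rose were 1 and 1, against 0.944% and 0.975% of all genes. They were 11 and 25 with TMM on the genes, against 16.0% and 16.5%, and 11 and 26 with DESeq2's size factors. With 1 library left out, 8 to 87 fell in WT, 2 to 109 in ΔLEO1, and 1 rose in each. Left out singly, libraries 1, 2, 3, 7, 9, 11 and 12 moved the count in WT by over 1.5 times (10, 14, 73, 8, 11, 78 and 87 members). Of all genes 8.94%, 13.3%, 57.0%, 8.64%, 9.80%, 59.3% and 65.3% fell in those fits. Libraries 2, 4, 5, 7, 10, 11 and 12 did so in ΔLEO1 (25, 3, 19, 24, 2, 6 and 109 members). There 35.9%, 5.98%, 22.7%, 34.8%, 4.86%, 8.30% and 88.4% of all genes fell. The interaction had 0 members, against 0.219% of all genes, and 8 with either scaling on the genes, against 4.08% with TMM. It had 0 to 1 with 1 library left out. The genotype calls were 5 lower and 0 higher in 10% serum, against 4.64% and 4.20% of all genes. In 0.1% serum they were 2 lower and 1 higher, against 3.59% and 3.85%. With TMM on the genes they were 57 and 4 and 37 and 5, against 21.8% and 17.7% and 17.6% and 15.4%. Shares of all genes for the other genotype alternatives are not given here. With DESeq2's size factors the genotype calls were 55 and 4 and 37 and 5. They were 3 lower in 10% serum at a threshold of 0.01, 2 higher in 0.1% serum with DESeq2, and 2 higher in 10% and 24 lower in 0.1% serum without the highest-numbered libraries. With 1 library left out they ran from 2 to 6 lower and 0 to 2 higher in 10% serum, and from 2 to 6 lower and 1 to 2 higher in 0.1% serum. On the genes' own scale the serum change was above 0 for 52 members in WT and 73 in ΔLEO1, while on the ERCC scale 114 of 117 were negative in each. Scaling moved the median of all genes from −0.97 and −1.05 to 0.00 and 0.01, so a change of sign there is not particular to a gene. Of the named genes called on the ERCC scale, it occurred in ΔLEO1 for PRKAR2A (0.0124 with TMM and 0.0110 with DESeq2's size factors) and RRP9 (0.12 and 0.11). The causes of the other changes were not tested.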
